A study of Mus musculus with 9 samples.

Results

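The genes described here are 9 early-response genes of the IER, ZFP36 and BTG families: Ier2, Ier3, Ier5, Zfp36, Zfp36l1, Zfp36l2, Btg1, Btg2 and the related RNA-binding gene Zc3h12a. They were chosen by gene symbol, and all 9 were found among the 53170 distinct gene names of the table. All 9 also passed the filter for testing, a mean of at least 0.5 FPKM (fragments per kilobase of transcript, scaled to library depth) over the libraries, which left 12012 genes. RNA came from wild-type RAW264.7, a macrophage-like line of the mouse, grown in αMEM with serum. The 3 groups of 3 libraries were a blank control, cells on a membrane that the labels call BMC, and cells on the same membrane stimulated with low-intensity pulsed ultrasound (BMC+LIPUS). The labels do not spell out BMC, and the title of the series names piezoelectric membranes and macrophage polarization. No group had ultrasound without a membrane, and all cells came from 1 line. Separate cultures are not stated for the replicates of a group, so each p-value reflects the scatter of these libraries, which could be technical.

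As background, immediate early genes are transcribed soon after a stimulus without new protein synthesis, and many of their mRNAs are short-lived. Zfp36 (tristetraprolin) and its relatives Zfp36l1 and Zfp36l2 are zinc finger proteins that bind AU-rich elements in 3′ untranslated regions (UTRs) and recruit the CCR4-NOT deadenylase, so that cytokine mRNAs such as that of Tnf are shortened and destroyed. Zc3h12a encodes Regnase-1, an endonuclease that cuts stem loops in inflammatory mRNAs. Btg1 and Btg2 are antiproliferative proteins that bind the CNOT7 and CNOT8 deadenylases. Ier2, Ier3 and Ier5 are small proteins induced by growth factors and stress. In macrophages, tristetraprolin and Regnase-1 are known as brakes on inflammation that are themselves induced by inflammatory stimuli.

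The AU-rich sites of the members are shown because several of these mRNAs carry the sequence that the ZFP36 proteins bind. The heptamer TATTTAT, written in DNA letters, was counted in the longest annotated 3′ UTR of each gene in GENCODE transcripts of build GRCm38. It was present in 5 of the 9 genes and in 2914 of the 9729 tested genes that have a 3′ UTR. Ier3 had 4 copies in 613 bases, and 0.356% of tested genes with a UTR of similar length (80% to 125%) had as many. Zfp36 had 3 copies in 774 bases, which 0.855% of its length class reached. Zfp36l1 had 3 in 1835 bases and Zfp36l2 3 in 1822 bases, reached by 3.59% and 3.55% of theirs. Btg2 had 1 in 2199 bases, like 40.8% of its class, while Ier2, Ier5, Btg1 and Zc3h12a had 0. The longer nonamer TTATTTATT, which contains the heptamer, was counted as well. Zfp36, Zfp36l1 and Zfp36l2 had 1 each, while Ier3 and Btg2 had 0. It was present in 33.3% of the members and 8.16% of tested genes with a 3′ UTR. The 30 bases around the densest site of each of the 5 are given 5′ to 3′ with the heptamer in capitals. The windows of Ier3 and Zfp36 each hold 2 copies. A match describes letters and shows no binding.
Ier3: ctaattaaTATTTATgTATTTATgtatatc
Zfp36: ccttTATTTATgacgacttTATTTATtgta
Zfp36l1: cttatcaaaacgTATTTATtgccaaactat
Zfp36l2: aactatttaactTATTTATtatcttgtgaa
Btg2: aaaatgaagagcTATTTATacatgtttttt

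Promoters of 3 members are shown as examples, each holding a motif of a factor known for early transcription. RefSeq promoters of build GRCm38.p6, 250 bases before to 50 after the start, were present for 7 of the 9 genes and were searched on both strands, and 32851 promoters gave the shares. Zfp36 held a CArG box, the site of serum response factor, at position -58 from the start, as did 1.63% of promoters anywhere in the window. Ier3 held a kappaB motif at position -92, shared with 4.51%. Btg2 held the CRE letters TGACGTCA, bound by CREB, at position -166, shared with 1.79%. Among the other 4, Zfp36l1 held the AP-1 letters TGANTCA at position -129, found in 7.81%, and Btg1 and Zfp36l1 held TATAAA, found in 13.6%. AP-1 is also such a factor, but the Zfp36l1 promoter is not printed. None of the 7 held the EGR letters GCGTGGGCG, present in 0.612%. No motif searched was shared by all 7, and these windows say nothing of sites elsewhere. The Ier3 promoter lies at chr17:35821463-35821762 on the plus strand, that of Zfp36 at chr7:28379179-28379478 on the minus strand, and that of Btg2 at chr1:134079106-134079405 on the minus strand. Each is written 5′ to 3′ in the direction of transcription, and the capitals mark the motif.
Ier3: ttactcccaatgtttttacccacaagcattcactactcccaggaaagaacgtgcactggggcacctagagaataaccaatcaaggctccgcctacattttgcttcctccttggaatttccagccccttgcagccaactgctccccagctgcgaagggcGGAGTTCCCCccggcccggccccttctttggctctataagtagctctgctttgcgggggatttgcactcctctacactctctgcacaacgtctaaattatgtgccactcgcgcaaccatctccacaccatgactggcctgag
Zfp36: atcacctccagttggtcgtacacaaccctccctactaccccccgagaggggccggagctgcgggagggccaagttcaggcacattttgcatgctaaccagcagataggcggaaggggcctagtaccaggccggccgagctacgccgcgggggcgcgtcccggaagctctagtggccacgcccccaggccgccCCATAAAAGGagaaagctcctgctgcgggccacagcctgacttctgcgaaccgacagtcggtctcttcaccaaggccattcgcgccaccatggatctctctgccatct
Btg2: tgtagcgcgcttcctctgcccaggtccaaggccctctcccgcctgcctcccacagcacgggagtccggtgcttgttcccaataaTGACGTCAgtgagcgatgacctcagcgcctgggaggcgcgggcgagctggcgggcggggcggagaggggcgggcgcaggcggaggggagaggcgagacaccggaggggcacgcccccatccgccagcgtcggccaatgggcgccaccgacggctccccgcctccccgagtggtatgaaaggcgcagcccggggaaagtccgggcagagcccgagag

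The libraries held 12675541 to 16574453 counts over named genes. All 8 macrophage markers checked (Adgre1, Csf1r, Cd68, Lyz2, Itgam, Spi1, Fcgr3 and Cd14) were detected, and their summed level was 6574 to 7358 FPKM in control, 7216 to 7966 in BMC and 7410 to 7656 in BMC+LIPUS. Lyz2 made up most of that sum, with means of 5194, 5564 and 5385 FPKM in the same order. In BMC against control, 3 of the 8 were higher and 1 lower at an edgeR adjusted p under 0.05, beside 35.9% of all tested genes. Cd14 rose by a log2 change of 0.79 and Spi1 by 0.35, and Cd68 fell by 0.22. Summed markers of other cells stayed at or under 0.01 FPKM for fibroblasts, 0.29 for lymphocytes, 1.30 for granulocytes and mast cells and 0.06 for epithelium and endothelium. Col1a2, Dcn, Pdgfra, Lum, Cd3e, Ms4a1, Ly6g, S100a9, Mpo, Epcam, Krt8 and Cdh1 were at 0 in every library. The members were measured with 1747 (Zc3h12a) to 57981 (Btg1) counts over the 9 libraries. Zfp36, Zfp36l1 and Zfp36l2 each overlap an annotated gene on the opposite strand. The strand setting of the counting is not given in the sources used here, so reads of such pairs cannot be told apart. The only 1 of these partners found by name in the table, Gm44710 at the Zfp36 locus, had 33 counts against 14650 of Zfp36. In whole-culture RNA, fewer cells expressing a gene and less RNA per cell cannot be told apart.

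What the cells express on the membrane without ultrasound was read from BMC against control. All 9 genes were called by edgeR's quasi-likelihood test at an adjusted p under 0.05, 8 higher and 1 lower. Of all tested genes, 35.9% were called either way and 17.2% called higher. The lone fall was that of Zfp36l2. The members' median log2 change was 0.83, against 0.01 over all tested genes. For 8 of the 9, the highest library of one group lay below the lowest of the other, which was so for 46.5% of tested genes.

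Ier3, also known as IEX-1, is a regulator of cell survival and an NF-kB target, and it changed most among the 9. Its level was 18.30, 15.72 and 23.35 FPKM in the control libraries, 63.44, 83.57 and 133.28 in BMC, and 152.23, 94.36 and 205.65 under BMC+LIPUS. All 6 membrane libraries lay above all controls, and they differed widely among themselves. On the membrane alone it was 5.13-fold higher (log2 change 2.36, SE 0.283, edgeR adjusted p = 9.20e-06). The 95% interval of that log2 change ran from 1.76 to 2.96.

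Ier2, a nuclear protein and immediate early gene, rose less than Ier3. It measured 25.56, 24.84 and 32.65 FPKM in control, 50.27, 46.26 and 44.50 in BMC, and 45.78, 48.98 and 47.02 under BMC+LIPUS. The membrane groups stood at nearly the same level, clear of the controls. The rise in BMC was 1.78-fold (log2 change 0.83, SE 0.0924, edgeR adjusted p = 4.23e-06).

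Ier5, which binds protein phosphatase PP2A and the heat shock factor HSF1, changed least. Its libraries gave 25.55, 28.52 and 30.83 FPKM in control, 37.83, 30.80 and 28.26 in BMC, and 32.06, 36.40 and 31.48 under BMC+LIPUS. BMC overlapped control, and its highest value was replicate 1. The fitted change in BMC was 1.19-fold (log2 0.25, SE 0.0937, edgeR adjusted p = 0.0448). Without BMC replicate 1 the log2 change was 0.13 and the adjusted p 0.251, and the call was lost in 12 of 20 alternative settings.

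The IER genes did not keep their proportions. The ratio of Ier3 to Ier2 in FPKM was 0.633 to 0.716 in control, 1.26 to 3.00 in BMC and 1.93 to 4.37 in BMC+LIPUS. Taken as a log2 CPM (counts scaled to library size) ratio within each library, it was 3.49-fold higher in the 6 membrane libraries than in the 3 controls (two-sided exact permutation p = 0.0238, adjusted p = 0.0357 over 6 ratios). The ratio of Ier5 to Ier2 went the other way, from 0.944 to 1.15 in control to 0.635 to 0.753 in BMC and 0.670 to 0.743 in BMC+LIPUS. It was 1.48-fold lower on the membrane (exact permutation p = 0.0238, adjusted p = 0.0357). The p of 0.0238 is the smallest that 3 against 6 libraries allow. Full separation of the Ier3 to Ier2 ratio already follows from the levels above. Its p therefore restates those changes and is no further support. Ier3 made up 25.3% of the summed IER level in control, 52.9% in BMC and 63.7% in BMC+LIPUS.

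**Figure D1:**
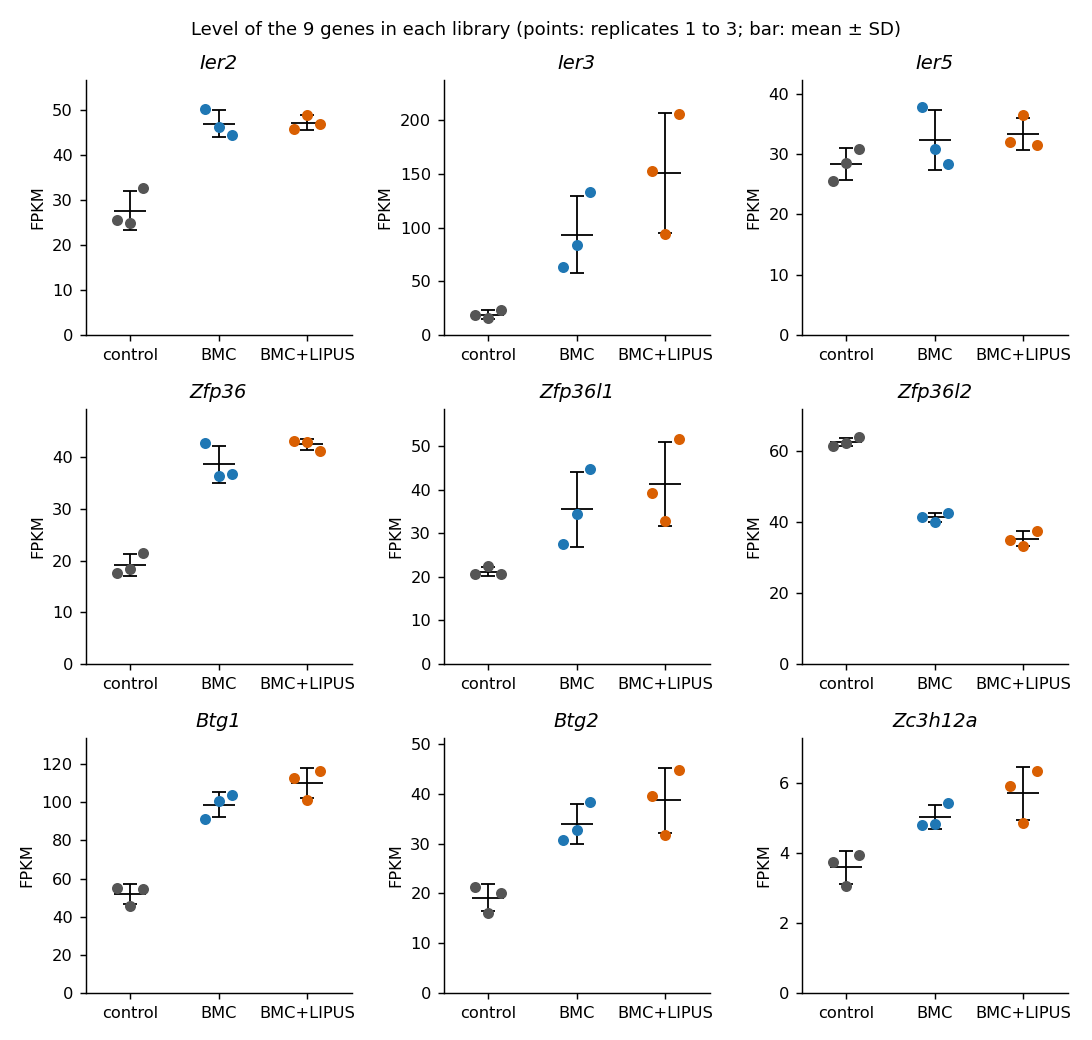
Level in FPKM of each of the 9 genes in control, BMC and BMC+LIPUS. Points are libraries in the order of replicates 1 to 3 and bars the mean ± SD (n = 3). Zfp36l2 falls from 62.5 to 41.3 and 35.3 FPKM while the means of the other 8 are higher in both membrane groups, and Ier3 scatters most.

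Among the ZFP36 genes, Zfp36 rose and Zfp36l2 fell. Zfp36, or tristetraprolin, measured 17.51, 18.27 and 21.45 FPKM in control, 42.71, 36.26 and 36.80 in BMC, and 43.17, 42.98 and 41.19 under BMC+LIPUS. Every membrane library lay far above the controls, and the BMC+LIPUS libraries were close together. The rise in BMC was 2.11-fold (log2 change 1.08, SE 0.0797, edgeR adjusted p = 5.57e-08), the smallest p among the members.

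Zfp36l1, a paralog with the same RNA-binding domain, also rose. It gave 20.70, 22.42 and 20.60 FPKM in control, 27.58, 34.39 and 44.69 in BMC, and 39.32, 32.90 and 51.75 under BMC+LIPUS. The controls agreed closely and the membrane libraries spread out above them. The fitted rise in BMC was 1.75-fold (log2 change 0.81, SE 0.162, edgeR adjusted p = 0.00105).

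Zfp36l2, a paralog known for its roles in blood cell development, was the most abundant of the 9 in control. Its values were 61.55, 62.22 and 63.87 FPKM in control, 41.50, 39.88 and 42.53 in BMC, and 35.07, 33.32 and 37.54 under BMC+LIPUS. The 3 groups did not overlap in any pair. In BMC it was 1.45-fold lower (log2 change -0.53, SE 0.0628, edgeR adjusted p = 7.14e-06).

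The makeup of the ZFP36 family turned over on the membrane. Its summed level, for which no test was run, was 103 ± 3.08 FPKM in control, 115 ± 7.45 in BMC and 119 ± 10.7 in BMC+LIPUS (SD, n = 3). Within it, the share of Zfp36l2 was 60.8% ± 0.765 in control, 35.8% ± 1.43 in BMC and 29.7% ± 0.878 in BMC+LIPUS. Zfp36 held 18.5% ± 1.50, 33.6% ± 4.32 and 35.9% ± 3.96 in the same order. Zfp36l1 held 20.7% ± 1.17, 30.6% ± 5.70 and 34.4% ± 4.84. The FPKM ratio of Zfp36 to Zfp36l2 was 0.284 to 0.336 in control, 0.865 to 1.03 in BMC and 1.10 to 1.29 in BMC+LIPUS, and its membrane libraries were 3.49-fold above the controls (exact permutation p = 0.0238, adjusted p = 0.0357). The ratio of Zfp36l1 to Zfp36l2 was 2.91-fold higher on the membrane, with the same p and adjusted p. Every membrane library lay above every control for Zfp36 and Zfp36l1, and below every control for Zfp36l2. Both ratios to Zfp36l2 therefore had to separate fully, so their p restates those changes and is no further support. For Zfp36 to Zfp36l1 the groups overlapped, and the log2 difference of 0.26 did not pass (exact permutation p = 0.333, adjusted p = 0.333).

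**Figure D2:**
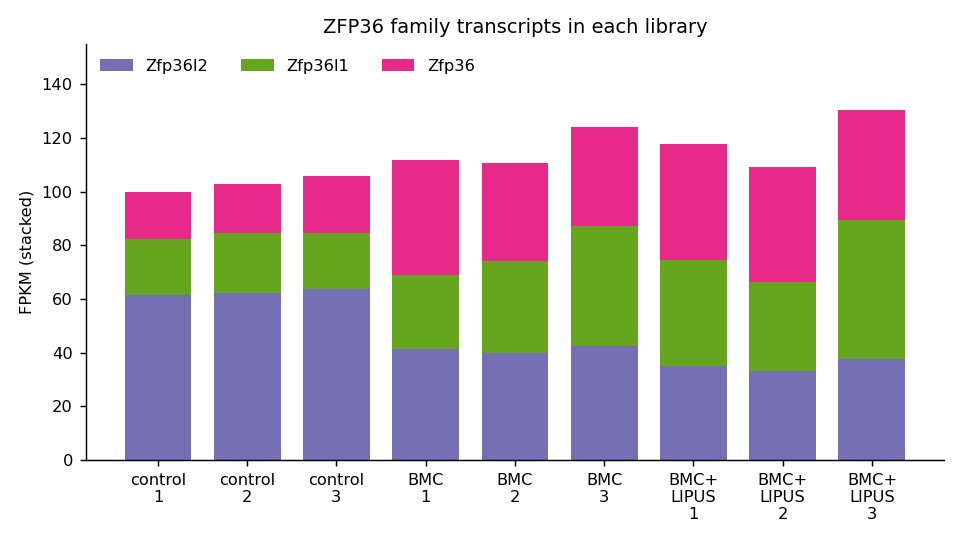
Stacked FPKM of Zfp36l2, Zfp36l1 and Zfp36 in each of the 9 libraries, 1 bar a library. The total runs from 99.8 to 130 FPKM, while the Zfp36l2 part shrinks from over 60% of the bar in every control to under 38% in every membrane library.

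The BTG genes rose together. Btg1 gave 54.83, 45.72 and 54.75 FPKM in control, 91.23, 100.87 and 103.74 in BMC, and 112.53, 101.07 and 116.66 under BMC+LIPUS. Its libraries on and off the membrane were far apart, and in BMC it had the highest mean of the 9, 98.6 ± 6.55 FPKM, which did not differ from Ier3 at 93.4 ± 35.9 beyond the spread. The rise in BMC was 1.99-fold (log2 change 0.99, SE 0.0836, edgeR adjusted p = 2.06e-07). Btg2, also a p53 target, gave 21.29, 16.04 and 20.08 FPKM in control, 30.72, 32.67 and 38.43 in BMC, and 39.52, 31.84 and 44.79 under BMC+LIPUS. Its membrane libraries also all lay above the controls. The rise in BMC was 1.86-fold (log2 change 0.89, SE 0.129, edgeR adjusted p = 5.93e-05). The share of Btg2 in the summed BTG level was 26.9%, 25.6% and 25.9% in control, BMC and BMC+LIPUS. The log2 ratio of Btg2 to Btg1 differed by -0.09 between membrane and control libraries, which did not pass (exact permutation p = 0.262, adjusted p = 0.314).

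Zc3h12a was the least abundant member. It measured 3.74, 3.07 and 3.95 FPKM in control, 4.81, 4.84 and 5.43 in BMC, and 5.92, 4.87 and 6.34 under BMC+LIPUS. The gap between the highest control and the lowest membrane library was small, but no values overlapped. In BMC it was 1.47-fold higher (log2 change 0.55, SE 0.139, edgeR adjusted p = 0.00522). By mean FPKM it stood at the 38.7 percentile of tested genes, while the other 8 stood between 85.0 and 95.2.

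In the order of levels, Zfp36l2 led in control at 62.5 ± 1.19 FPKM, followed by Btg1 at 51.8 ± 5.24. Ier5 and Ier2 came next, at 28.3 ± 2.65 and 27.7 ± 4.32, and did not differ beyond their SDs. Zfp36l1 followed at 21.2 ± 1.02, and Zfp36 (19.1 ± 2.09), Ier3 (19.1 ± 3.88) and Btg2 (19.1 ± 2.75) were level with each other. In BMC+LIPUS the order was led by Ier3 at 151 ± 55.7 and Btg1 at 110 ± 8.08, which overlapped within the spread of Ier3. Ier2 at 47.3 ± 1.61, Zfp36 at 42.4 ± 1.09, Zfp36l1 at 41.3 ± 9.58 and Btg2 at 38.7 ± 6.51 followed. Zfp36l2 at 35.3 ± 2.12 and Ier5 at 33.3 ± 2.69 stood above only Zc3h12a at 5.71 ± 0.757.

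The comparison of BMC+LIPUS with BMC asked what ultrasound adds on the membrane. None of the 9 genes was called by edgeR, nor by DESeq2, at an adjusted p under 0.05. Of all tested genes 0.108% were called by edgeR. At an unadjusted p under 0.05 there were 2 members, Ier3 and Zfp36l2, beside 11.5% of all tested genes. The fitted log2 change of Ier3 was 0.70, or 1.63-fold, with a 95% interval of 0.17 to 1.23 (edgeR adjusted p = 0.298). Its BMC and BMC+LIPUS libraries overlapped. Without BMC replicate 3, the highest of its group, the log2 change was 1.05 and passed (edgeR adjusted p = 0.0424). It was 0.40 without BMC+LIPUS replicate 3, the highest of that group (edgeR adjusted p = 0.682), 0.48 without BMC replicate 1 and 0.96 without BMC+LIPUS replicate 2.

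Zfp36l2 was the only 1 of the 9 whose BMC and BMC+LIPUS libraries did not overlap, which was so for 15.8% of tested genes. Its log2 change was -0.22, with a 95% interval of -0.35 to -0.08 (edgeR adjusted p = 0.197). For Ier2 the interval was -0.18 to 0.20 around a change of 0.01, and for Ier5 -0.15 to 0.25 around 0.05. Changes of Zfp36 (0.14), Btg1 (0.17), Zc3h12a (0.20), Btg2 (0.20) and Zfp36l1 (0.23) had intervals that all included 0, with upper ends between 0.31 and 0.56. With each library left out in turn, the log2 change ran from 0.02 to 0.43 for Zfp36l1, 0.07 to 0.33 for Btg2, 0.10 to 0.30 for Zc3h12a, 0.11 to 0.23 for Btg1 and 0.10 to 0.21 for Zfp36. For Zfp36l1, Btg2 and Zc3h12a the lowest of these came without BMC+LIPUS replicate 3, and for Btg1 and Zfp36 without BMC replicate 1 and BMC replicate 2. A p that misses the threshold does not show that these levels were alike.

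**Figure D3:**
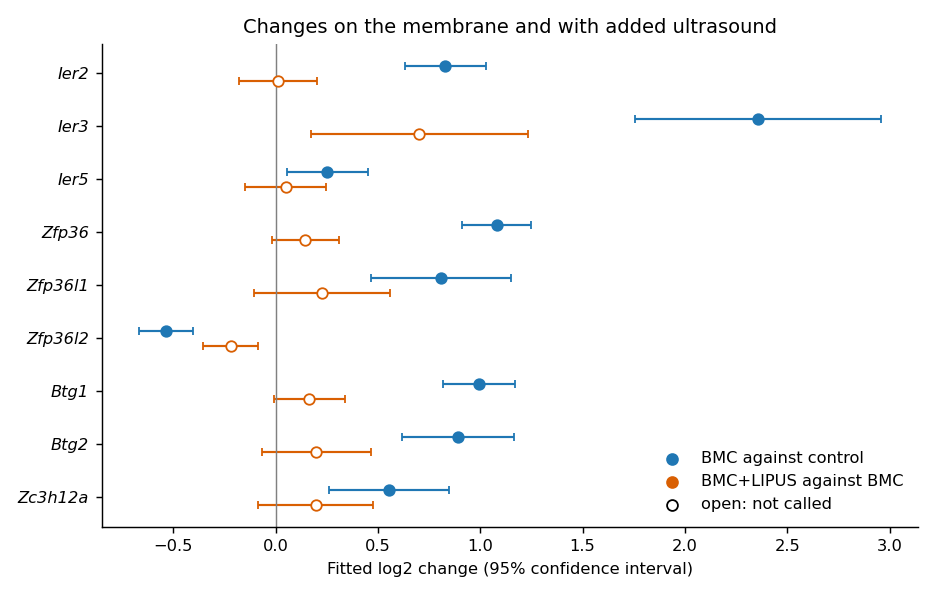
Fitted log2 change of each gene with its 95% confidence interval, for BMC against control and for BMC+LIPUS against BMC. Filled points were called at an adjusted p under 0.05 by edgeR and open points were not. All 9 changes on the membrane are filled and all 9 with added ultrasound are open.

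BMC+LIPUS against control used the same control libraries as BMC against control, so the values are given side by side. All 9 genes were called again by edgeR, 8 higher and 1 lower, where 43% of tested genes were called, and all 9 groups were free of overlap, against 50.9% of tested genes. Ier3 was 8.35-fold higher (5.13-fold in BMC), Zfp36 2.34-fold (2.11), Btg1 2.23-fold (1.99) and Btg2 2.13-fold (1.86). Zfp36l1 was 2.05-fold higher (1.75), Ier2 1.79-fold (1.78), Zc3h12a 1.68-fold (1.47) and Ier5 1.23-fold (1.19). Zfp36l2 was 1.69-fold lower (1.45). Ier5 had the largest adjusted p, 0.0152, and passed in 15 of 20 alternative settings.

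The scatter among membrane libraries was not the same for all members. The SD of log2 CPM within BMC was 0.556 for Ier3, at the 95.2 percentile of tested genes, and 0.363 for Zfp36l1, at the 89.5 percentile, where the median gene had 0.109. Within BMC+LIPUS it was 0.590 for Ier3 and 0.353 for Zfp36l1, with a median of 0.113. Zfp36 had only 0.0206 there, at the 3.11 percentile.

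This scatter moved with an osmotic score, the mean log2 CPM of 4 genes that an earlier look at these libraries had singled out. They are the osmolyte transporters Slc5a3 and Slc6a12, the sorbitol-making Akr1b3 and the chaperone Hspa4l. The score was 6.77, 6.45 and 6.66 in control, 6.91, 7.53 and 8.27 in BMC, and 8.11, 7.30 and 8.68 under BMC+LIPUS. Zfp36l1 had the order of the score over all 6 membrane libraries, which 1.07% of tested genes had. Ier3, Zfp36l1, Btg1, Btg2 and Zc3h12a, 5 of the 9, had its order within each membrane group, as did 7.01% of tested genes. By the same TMM-scaled log2 CPM, Zfp36l2 had it within BMC+LIPUS alone, Zfp36 in neither group, and Ier2 and Ier5 ran opposite to it within BMC. The members and the score share libraries and were both known from earlier results, so these counts are a description.

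With the score as a covariate, a fit chosen after seeing the data, several changes in BMC against control were smaller. The log2 change of Ier3 was 1.50 (edgeR adjusted p = 5.92e-13), that of Btg2 0.56 and that of Zfp36l1 0.31 (edgeR adjusted p = 0.00853). Zc3h12a was no longer called, at 0.31 (edgeR adjusted p = 0.139). That of Btg1 was also smaller, at 0.81. Larger changes were those of Ier5, at 0.44 (edgeR adjusted p = 0.000183), Ier2, at 0.87, Zfp36, at 1.14, and Zfp36l2, at -0.63. In BMC+LIPUS against control the same fit gave 1.82 for Ier3, 0.59 for Btg2, 0.31 for Zfp36l1, 0.59 for Ier5 and 0.38 for Zc3h12a, the last of which was not called (edgeR adjusted p = 0.143). In BMC+LIPUS against BMC it called Ier3 at 0.31 (edgeR adjusted p = 0.0240) and Zfp36l2 at -0.27 (edgeR adjusted p = 0.0168), and that fit called 221 genes in all. The score itself was higher in every membrane library than in every control, and its part in the changes was not tested.

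**Figure D4:**
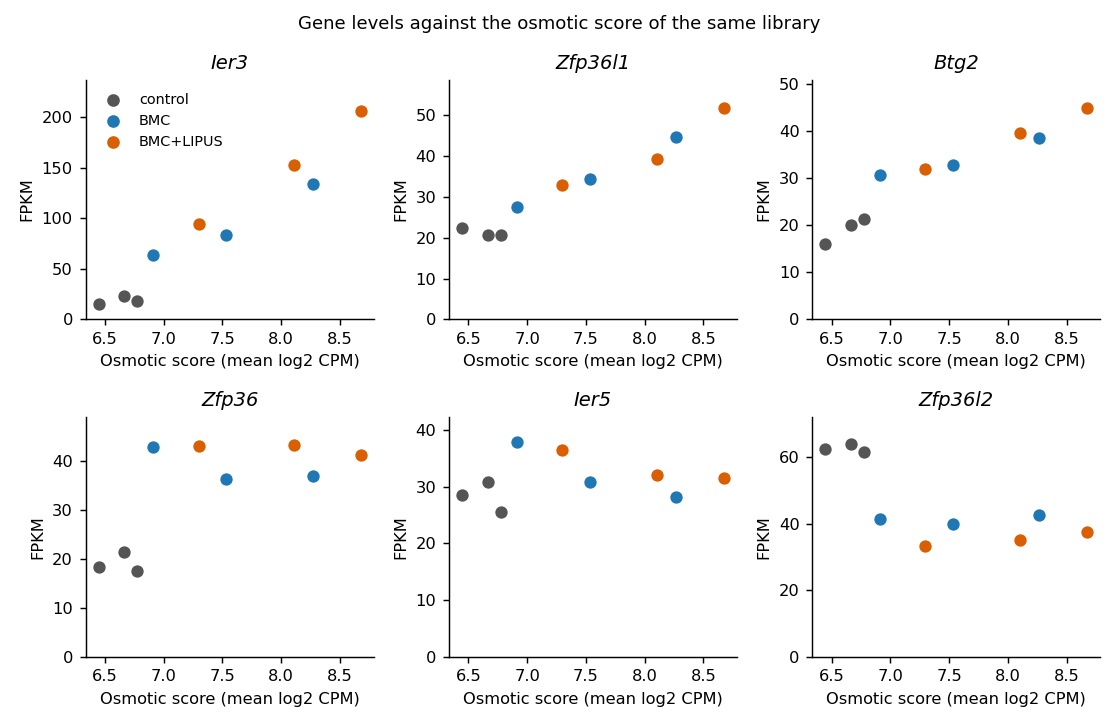
FPKM of 6 of the genes in each library (vertical) against that library's osmotic score (horizontal, mean log2 CPM of 4 genes). Ier3, Zfp36l1 and Btg2 are higher in membrane libraries of higher score, while Zfp36 and Ier5 do not climb with it and Zfp36l2 does so within BMC+LIPUS alone.

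Relatives of the 9 genes were measured as well. Of 9 relatives, Ier5l, Btg3, Btg4, Zfp36l3 and Zc3h12b stayed under the filter, Btg3 and Btg4 at 0 in every library. Zc3h12c, a Regnase family member, rose in BMC from 10.2 ± 0.864 to 18.5 ± 2.15 FPKM (log2 change 0.92, edgeR adjusted p = 3.76e-07). Zc3h12d fell from 1.10 ± 0.204 to 0.517 ± 0.0833 FPKM (log2 change -1.03, edgeR adjusted p = 0.00210). Tob2, which joins the deadenylase as BTG proteins do, rose by 0.21 (edgeR adjusted p = 0.0320), and Tob1 had a log2 change of 0.20 with an edgeR adjusted p of 0.349.

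The decay machinery that ZFP36 and BTG proteins recruit changed in both directions in BMC against control. Of 13 tested genes of the CCR4-NOT and TOB list 3 rose and 4 fell, with a median log2 change of -0.03. The catalytic subunit Cnot7 rose by 0.41 (edgeR adjusted p = 0.000264), while Cnot9 fell by 0.36 and the catalytic subunit Cnot6l fell by 0.33. Of 14 decapping, PAN2-PAN3 and 5′ decay genes 3 rose and 1 fell, with a median of 0.03. The helicase Ddx6 rose by 0.28, the decapping activator Dcp1a rose by 0.27 and the deadenylase Parn fell by 0.32. Of 6 other AU-rich element binding proteins, Elavl1, a stabilizing factor also known as HuR, rose by 0.25, and the decay factor Khsrp and the translational silencer Tia1 fell by 0.30 and 0.28. The share of called genes in these 3 lists, 7 of 13, 4 of 14 and 3 of 6, stands beside 35.9% of all tested genes.

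Kinases, partners and related factors of the 9 proteins also held called genes in BMC against control. The p38-MK2 pathway phosphorylates tristetraprolin, which 14-3-3 proteins then bind. Of 7 tested genes listed for this control 4 rose and 1 fell in BMC, with a median of 0.30. The list also holds the phosphatase genes Dusp1 and Ppp2ca, which are among those that rose, by 0.54 and 0.30. The count and the median therefore do not describe the kinases alone. Mapkapk2, the MK2 kinase, rose by 0.62 (edgeR adjusted p = 2.49e-06), the 14-3-3 gene Ywhag rose by 0.37, and Mapk14, the p38α kinase, fell by 0.57 (edgeR adjusted p = 4.07e-05). Of 7 Regnase and Roquin partners 4 rose and 2 fell, with a median of 0.36, among them Malt1, the protease that cleaves Regnase-1, up by 0.37. Of 7 partners of IER and BTG proteins 5 rose and 0 fell, with a median of 0.21. Mcl1, a survival protein that IER3 is known to bind, rose by 0.58, and the PP2A subunits Ppp2r2a and Ppp2ca rose by 0.34 and 0.30. Of 7 tested HSF1 target genes 4 rose and 0 fell, with a median of 0.17, among them Hsph1 up by 0.30 and Hspa8 by 0.20. Hspa1b rose by 2.65. Its near-identical copy Hspa1a had 0, 1 and 1 counts in control, BMC and BMC+LIPUS, and whether the 2 share reads was not tested. The called shares of these 4 lists, 5 of 7, 6 of 7, 5 of 7 and 4 of 7, stand beside 35.9% of all tested genes called either way, and no test compared the lists. Some genes are counted in more than 1 list. Ppp2ca is in the p38-MK2 and the IER and BTG partner lists, and Dusp1 in the p38-MK2 and ZFP36 target lists. Zc3h12c and Zc3h12d are in the Regnase list, and Tob1 and Tob2 in the CCR4-NOT list, as well as among the relatives.

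Among transcripts known as targets of ZFP36 and Regnase-1, all of those called in BMC against control were higher, and many were not called or too low to test. Of 15 known ZFP36 targets 7 passed the filter, and 5 rose and 0 fell in BMC, with a median of 1.22, where 17.2% of all tested genes were called higher. Because the filter asks for a mean level over all libraries, a target seen only on the membrane could pass through that group. Cxcl2, a neutrophil-attracting chemokine, rose by 4.13, the chemokine Ccl3 rose by 2.53 and Ptgs2, the inducible prostaglandin synthase, rose by 2.40. Tnf, the best known target, named after its values were seen, rose by 1.22. Of 10 known Regnase-1 targets 6 passed the filter, and 4 rose and 0 fell, with a median of 0.72, among them Nfkbiz, an atypical IκB protein, up by 1.23. Of the tested targets that did not pass, named after their values were seen, Il1b had a log2 change of -0.31, Pim1 of 0.07 and Nfkbid of 0.11. Il6, Csf2, Il12b and Lcn2 were at 0 in every library. Of the tested targets, Cxcl2, Ptgs2 and Il1b stand in both target lists, as do Il6 and Cxcl1, which were too low to test. With added ultrasound, Cxcl2 was the only gene of these lists that was called, at a log2 change of 0.57 (edgeR adjusted p = 0.0344).

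**Figure D5:**
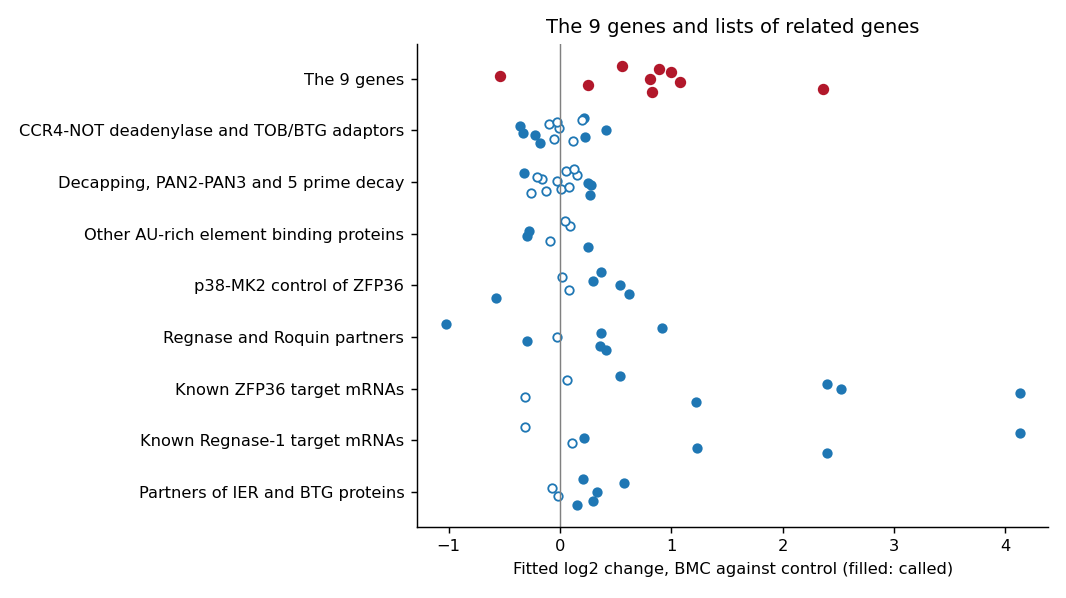
Fitted log2 change in BMC against control for the 9 genes and for tested genes of 8 related lists, 1 point a gene. Filled points were called by edgeR and open points were not. The decay machinery lies between -0.36 and 0.41, while ZFP36 targets reach 4.13.

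The genes whose levels ran most like each member over the 9 libraries were found by the root-mean-square difference of log2 CPM after each gene's own mean was subtracted. For Ier2 they were the LPS co-receptor Cd14 (0.0701) and the actin gene Actg1 (0.0836), and for Ier5 Cd74 (0.0709) and Usb1 (0.0712). For Ier3 they were Rbpms (0.228) and Cass4 (0.270), the least close of all members. Zfp36 ran most like the poliovirus receptor homolog Pvr (0.0978) and the inflammasome gene Nlrp3 (0.109), and Zfp36l1 like Chac2 (0.0982) and Tsc22d4 (0.0988). The closest match of any member was that of Zfp36l2 with Pcna, the replication clamp (0.0401), followed by Nxpe3 (0.0516). Btg1 ran most like the autophagy receptor Sqstm1 (0.0617) and the secreted phosphoprotein Spp1 (0.0685). Btg2 ran like Fam167b (0.0728) and then Btg1 itself (0.0993), which was the closest pair among the 9, and Zc3h12a like Pnrc1 (0.0690) and Snhg6 (0.0935). The farthest pair was Ier3 and Zfp36l2, at 1.63.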

How the data were processed

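Polyadenylated RNA of RAW264.7 cells was sequenced in 9 libraries, 3 a group, grouped by the sample labels. Per the labels' protocols, Trizol was used to take up the RNA and the library kit keeps strand. The submitters' processing notes name HISAT2 2.0.1 and HTSeq 0.6.1, after trimming with cutadapt 1.9.1, and also DESeq2 and build GRCm39. Annotation and strand setting were not given in the sources used here. Deposited counts are whole reads per gene, not normalized, and the deposited FPKM values were scaled by the authors and rounded to 2 decimals. Of 56691 lines, 2639 carried no gene name (0.0889% to 0.0976% of a library's counts) and were left out, and of 77 names on several lines the line with the highest mean was kept. A further 6 columns of 3 libraries that no label names were not used. Depth was 12675541 to 16574453 counts a library.

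Genes averaging 0.5 FPKM or more were tested with edgeR 4.0.16 in R 4.3.3 (TMM scaling, quasi-likelihood fit of 3 group means over 9 libraries, Benjamini-Hochberg over 12012 genes, called under 0.05). SEs of log2 changes come from the F statistics. Ratios of members used log2 CPM without a prior count or TMM scaling, and a two-sided exact permutation test in scipy 1.17.1. The SDs of log2 CPM, the osmotic score and the nearest genes used TMM-scaled log2 CPM with a prior count of 2. Alternatives used DESeq2 1.42.0, limma 3.58.1 with pseudocounts of 1 and 0.1, other scalings and filters, a replicate block and each library left out. The edgeR step was tested on simulated data. The rule for named genes took all members, their relatives, up to 3 called genes of smallest p from each other list in each comparison, and the 2 genes nearest to each member, leaving out predicted and clone names. The members and lists were chosen with earlier results of these data known. The sequences are from RefSeq and GENCODE on GRCm38, another build than the files', and were matched by symbol. The level of 1 marker gene is not reported here.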

Additional observations from a re-analysis of the deposited data

How the results depend on the processing

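Over 20 alternative settings, the calls of Ier2, Ier3, Zfp36, Zfp36l1, Zfp36l2, Btg1 and Btg2 against control held in both membrane groups in every setting, with the same direction. A minimum of 5 FPKM left Zc3h12a out of the test. In BMC+LIPUS against BMC the number of members called was 1 with no filter on low genes (Ier3, in a fit that called 236 of 22879 genes), 1 with the replicate block (Ier3, log2 change 0.69, edgeR adjusted p = 0.0377) and 2 with the osmotic score as a covariate. Leaving out 1 library gave 0 to 1. Over all genes, DESeq2 called 88 in that comparison, robust estimation 44, the replicate block 51 and the covariate 221, beside 13 in edgeR. The log2 change of Ier2 there was -0.0034 with upper-quartile factors and -0.0168 to 0.0559 without 1 library, that of Ier5 -0.0296 to 0.17 without 1 library, and that of Zfp36l1 -0.00017 with the covariate. The cause was not tested.

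For the ratios, leaving out 1 library leaves a smallest p of 0.0357 or 0.0714 before adjustment over 6 ratios, so their loss of significance follows from the number of libraries. The log2 differences then ran from 1.74 to 1.87 for Zfp36 to Zfp36l2, 1.44 to 1.65 for Zfp36l1 to Zfp36l2, 1.63 to 1.99 for Ier3 to Ier2 and -0.63 to -0.49 for Ier5 to Ier2. Zfp36 to Zfp36l2 was 1.62 with BMC alone and 1.99 with BMC+LIPUS alone.

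The deviations of same-numbered libraries had correlations from -0.061 to 0.210 over 9 pairs, of which 1 was over 0.1, so the numbers were not taken to pair them. Those numbers, also used for the replicate block, are the labels' own. The column names number the membrane libraries differently, and a pairing by column names was not examined. The replicate block left Ier5 in BMC against control at an adjusted p of 0.0507 in edgeR. The fewest counts, 1747 over the 9 libraries, stood behind Zc3h12a, while the largest SEs were those of Ier3, 0.283 for BMC against control and 0.249 when BMC+LIPUS was set against BMC.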
